A study of Mus musculus with 8 samples.

Results

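The Hox genes of the mouse encode homeodomain transcription factors and lie in 4 clusters, HoxA, HoxB, HoxC and HoxD. They were taken as the protein-coding genes of the GENCODE annotation of build mm9 whose symbol is Hox, a cluster letter and a number. This gave 39 genes of 22271 protein-coding genes on the autosomes, X and Y, from 40 entries, because Hoxa3 has 2. Each cluster runs from its first to its last Hox gene. Of 524614 regions in the deposited BRG1 list, 100 overlapped a cluster.

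Binding of BRG1, the ATPase of the SWI/SNF chromatin remodelling complex, was measured by ChIP-seq in infarcted hearts of adult mice. They were C57BL/6 mice aged 10 to 12 weeks by the labels. The paper's methods name the strain C57BL/6J and give an older range. One group had been primed for a week with daily Tβ4, a small actin-binding peptide, at 12 mg per kg, and the other with PBS as the vehicle. Both groups had the left anterior descending artery tied and were injected again on days 0 and 2, and hearts were taken on day 4. Each group gave 2 BRG1 libraries and 2 input libraries. The list used here pools the Tβ4-primed BRG1 libraries against input and gives the ends of each region in bp, with no score and no separation of the replicates. Which MACS2 comparison made the list is not certain, so a region is read here only as an entry of it. Every value below therefore describes 1 list, with no error, no test and an unknown depth, and it allows no comparison with PBS-primed hearts. A heart mixes many cell types, and the list does not say in which of them a region arose.

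Hox proteins give cells their position along the body axis, and the order of the genes on the chromosome follows the order in which they are expressed along that axis and in time. Genes at the same place in different clusters are paralogues, numbered from the end expressed nearest the head. In cells that do not express them the clusters are typically held by Polycomb complexes, which SWI/SNF complexes containing BRG1 are known to oppose. In the embryo, anterior Hox genes mark progenitors of the outflow tract of the heart, and Hoxb13 works with Meis1 in the exit of heart muscle cells from the cell cycle.

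The 250 bases before 7 Hox gene starts are shown, with the bases inside a BRG1 region in capitals, because they let the reader see where a region ends beside a start. In each cluster the first is the start with the region of at most 300 bp closest to it. In HoxA and HoxD the other is the start with the largest covered share, and in HoxB it is Hoxb1, chosen for its known sites for HOX and PBX proteins. All were read from mm9, run 5′ to 3′ on the strand of the gene and hold 0 bases of annotated protein-coding exons.
Hoxa6 start, chr6:52161356-52161605, minus strand: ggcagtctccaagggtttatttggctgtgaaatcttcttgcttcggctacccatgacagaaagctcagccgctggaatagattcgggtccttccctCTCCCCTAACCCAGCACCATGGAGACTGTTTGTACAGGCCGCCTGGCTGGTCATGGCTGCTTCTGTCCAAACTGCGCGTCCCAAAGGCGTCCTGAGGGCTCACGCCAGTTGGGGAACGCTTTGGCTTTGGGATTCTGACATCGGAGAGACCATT
Hoxa5 start, chr6:52154587-52154836, minus strand: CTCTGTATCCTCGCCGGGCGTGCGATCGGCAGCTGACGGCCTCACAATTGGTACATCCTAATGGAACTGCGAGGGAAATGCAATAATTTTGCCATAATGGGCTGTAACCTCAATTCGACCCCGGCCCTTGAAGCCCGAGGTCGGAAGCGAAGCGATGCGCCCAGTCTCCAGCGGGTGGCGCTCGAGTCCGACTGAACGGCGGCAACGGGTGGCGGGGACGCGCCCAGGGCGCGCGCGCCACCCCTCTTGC
Hoxb13 start, chr11:96055380-96055629, plus strand: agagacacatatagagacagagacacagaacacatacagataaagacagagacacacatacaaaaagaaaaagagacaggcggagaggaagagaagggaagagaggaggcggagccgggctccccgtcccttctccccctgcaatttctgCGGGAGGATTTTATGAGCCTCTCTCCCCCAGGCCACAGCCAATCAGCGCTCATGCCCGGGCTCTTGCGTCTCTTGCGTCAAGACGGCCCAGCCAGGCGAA
Hoxb1 start, chr11:96226816-96227065, plus strand: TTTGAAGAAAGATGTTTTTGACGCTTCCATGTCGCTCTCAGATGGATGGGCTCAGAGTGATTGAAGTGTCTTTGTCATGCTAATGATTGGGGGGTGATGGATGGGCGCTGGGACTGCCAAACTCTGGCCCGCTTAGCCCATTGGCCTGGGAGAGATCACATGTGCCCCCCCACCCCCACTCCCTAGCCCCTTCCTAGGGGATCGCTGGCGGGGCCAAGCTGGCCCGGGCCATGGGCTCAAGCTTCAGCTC
Hoxc9 start, chr15:102806620-102806869, plus strand: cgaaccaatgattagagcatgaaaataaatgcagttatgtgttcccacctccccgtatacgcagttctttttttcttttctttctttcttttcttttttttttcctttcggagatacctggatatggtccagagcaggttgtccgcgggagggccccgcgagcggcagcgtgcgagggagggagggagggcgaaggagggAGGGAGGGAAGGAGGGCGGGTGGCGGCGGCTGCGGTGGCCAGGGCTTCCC
Hoxd12 start, chr2:74512736-74512985, plus strand: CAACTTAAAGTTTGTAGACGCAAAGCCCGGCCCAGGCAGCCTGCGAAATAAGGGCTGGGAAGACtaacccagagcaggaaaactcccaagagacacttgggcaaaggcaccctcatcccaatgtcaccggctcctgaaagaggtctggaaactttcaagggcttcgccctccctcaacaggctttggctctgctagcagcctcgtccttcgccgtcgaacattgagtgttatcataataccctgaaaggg
Hoxd3 start, chr2:74549736-74549985, plus strand: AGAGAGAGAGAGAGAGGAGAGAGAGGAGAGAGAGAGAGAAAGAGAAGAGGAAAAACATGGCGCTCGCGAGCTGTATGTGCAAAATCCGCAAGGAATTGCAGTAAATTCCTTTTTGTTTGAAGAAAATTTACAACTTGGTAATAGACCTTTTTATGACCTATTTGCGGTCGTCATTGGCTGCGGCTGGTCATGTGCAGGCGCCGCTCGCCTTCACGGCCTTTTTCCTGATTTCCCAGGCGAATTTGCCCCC

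The short regions at Hoxa6, Hoxb13 and Hoxc9 reached over the start itself, and covered 154, 100 and 50 of the 250 bases before it. The 270 bp region before Hoxd12 ended 187 bases short of that start and covered the 64 outermost bases. Before Hoxa5, Hoxb1 and Hoxd3 all 250 bases lay inside a region. The 7 sequences held between 7 CpG dinucleotides, before Hoxb1, and 28, before Hoxa5, beside a median of 11 before the 39 Hox starts and of 8 before 22266 protein-coding starts. The letters TGATNNAT, the core of the site that HOX and PBX proteins bind together, were searched on both strands. They occur before Hoxb1 as TGATGGAT, which begins 156 bases before the start, and in none of the other 6 sequences. This motif was present before 6 of 39 Hox starts, 15.4%, and before 6.99% of all protein-coding starts. A match is a description of the letters, not a bound site.

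For each gene, the regions within 5 kb of the outermost annotated start were counted, and the share of these bases inside regions, the covered share, was taken. At least 1 region lay within 5 kb of 36 of the 39 Hox starts, 92.3%, against 90.5% of all protein-coding genes. A region near the start was thus about as common at Hox genes as elsewhere. The start base itself lay inside a region in 15 Hox genes, 38.5%, against 24.2% of all protein-coding genes. The median covered share was 25.9% over the Hox genes and 22.1% over all protein-coding genes. The Hox genes were spread more widely: their quartiles were 9.90% and 57.7%, and those of all protein-coding genes 7.84% and 40.3%. More than 50% of the window was covered in 11 Hox genes, while 16.3% of protein-coding genes passed this mark. Less than 10% was covered in 10 Hox genes, and in 29.1% of protein-coding genes. The counts of regions did not set Hox genes apart, with a median of 2 in both lists and a range of 0 to 6 in the Hox genes. The windows of neighbouring Hox genes overlap, so the 94 regions counted over 39 windows were 73 different regions, and the genes are not independent of each other.

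**Figure D1:**
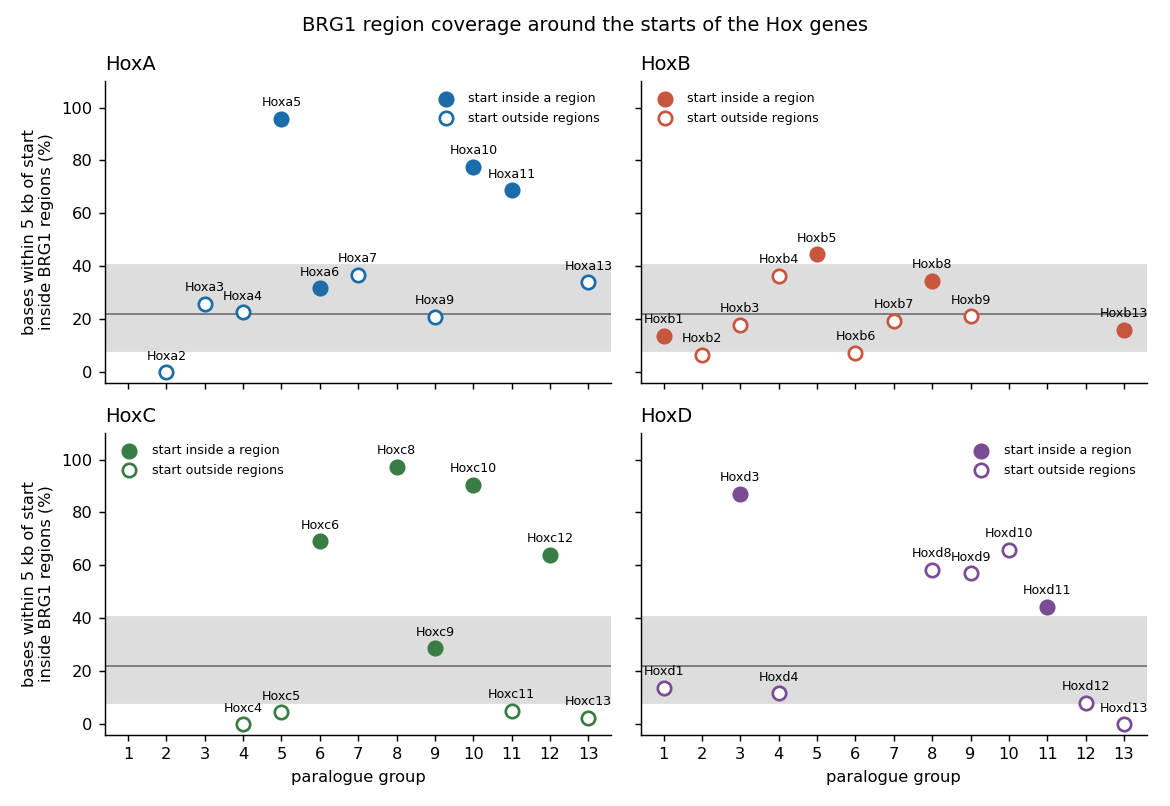
Covered share within 5 kb of the start (vertical axis, %) for 38 Hox genes, by paralogue group (horizontal axis) and cluster. Filled points have the start base inside a region, the line is the median of all protein-coding genes (22.1%) and the grey band their quartiles; HoxA, HoxC and HoxD hold genes above 60%, and in HoxB the largest share is 44.5%.

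In HoxA the largest covered share was at Hoxa5, which patterns the neck and chest and is needed for the lung. There 95.8% of the bases within 5 kb of the start were covered, and 1 region of 8280 bp held the whole gene. Hoxa10 and Hoxa11, which pattern the lumbar and sacral spine and the limb, had shares of 77.6% and 68.7%. Both of these starts also lay inside regions, which follow each other and are 6960 bp and 3240 bp long. The outermost start of Hoxa6 lay inside a region of 300 bp, with a covered share of 31.7%. This start belongs to a transcript not annotated as coding, and the coding transcript begins 2.63 kb further on, also inside a region and with a share of 58.1%. With 10 kb windows Hoxa6 had 59.3% and Hoxa5 58.0%. The smallest share in HoxA was 0% at Hoxa2, which gives the second pharyngeal arch its identity. Its start lay in a stretch of 17.6 kb without a region, longer than 97.5% of the gaps between regions. A long gap holds more bases than a short one, so a gap found through a start inside it tends to rank high.

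In HoxB no gene was covered as widely. The largest share, 44.5%, was at Hoxb5, a gene of the cervical and thoracic axis whose start lay inside a region of 3060 bp. The smallest was 6.60% at Hoxb2, a hindbrain gene, where the nearest region began 3444 bp past the start. Hoxb6 was close to it with 7.20%, and the order depended on the window. With 10 kb windows Hoxb6 had 3.60% and Hoxb2 16.5%, and with 2 kb windows both had 0%. The other starts inside a region were those of Hoxb1, Hoxb8 and Hoxb13. Hoxb1, which sets the identity of a hindbrain segment, had a share of 13.8%, all from 1 region of 1380 bp over the start. Hoxb8, known also for its role in myeloid progenitors, had a share of 34.4%. Its region of 1950 bp ended on the start base, so that 0.0292% of the gene body was covered. At Hoxb13 the share was 16.0%, from 4 regions, and the one over the start was 270 bp long.

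HoxC held the largest share of any Hox gene and, like HoxA and HoxD, a gene with a share of 0%. At Hoxc8, a gene of the thoracic skeleton and of motor neurons, 97.3% of the window was covered, and the value exceeded those of 99.7% of protein-coding genes. At Hoxc10, a gene of the lumbar region and hindlimb, the share was 90.4%. Each of these starts lay inside a region of 10290 bp, and these were the longest regions in any Hox cluster, longer than 99.6% of the list. Hoxc6 and Hoxc12 followed with 69.1% and 64.1%, although the other 2 coding starts of Hoxc6 had 54.3% and 11.4%, and Hoxc9, which sets thoracic motor neuron identity, had 28.6%. Hoxc12 lay wholly inside its region of 3960 bp. By contrast no region came within 5 kb of the outermost start of Hoxc4, the most anterior gene of the cluster, and the nearest region ended 9548 bp upstream. Its other coding start, 15.5 kb further on, had 2 regions within 5 kb and a share of 36.7%. Hoxc4 and Hoxc5 started inside the same stretch of 25.8 kb without a region, longer than 99.3% of the gaps between regions. The limit given for the gap at Hoxa2 applies here too.

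In HoxD the largest share was 87.0%, at Hoxd3, which patterns the first neck vertebrae. Its outermost start lay inside a region of 5460 bp, but Hoxd3 has 6 annotated coding starts spread over 33.7 kb, with covered shares from 5.40% to 95.8%. The rank of Hoxd3 held for 5 kb windows at the outermost start. With 10 kb windows it had 55.2%, less than Hoxd10 at 63.3% and Hoxd8 at 58.3%. With any coding start it had 59.6%, less than Hoxd11 at 69.0%. Hoxd11, a partner of Hoxa11 in the kidney and forearm, had a share of 44.3% and its start inside a region of 540 bp. That start is from a transcript not annotated as coding, and the 2 coding starts, with shares of 67.7% and 72.0%, were inside a region too. Hoxd8, Hoxd9 and Hoxd10, named here after their values were seen, had shares of 58.3%, 57.0% and 65.9% with the start base outside a region. With 2 kb windows these were 14.6%, 15.2% and 34%, beside a median of 15.3% over all protein-coding genes. The smallest share was 0% at Hoxd13, the gene of digits and genitalia. Its nearest region began 6163 bp past the start.

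Across all 39 genes, 73 different starts of protein-coding transcripts are annotated, and 24 of them lay inside a region. They belonged to 19 genes, so the number of Hox genes with a covered start rose from 15 to 19 when any coding start counted. By the same rule the share of all protein-coding genes rose to 31.1%. The median covered share over these starts was 28.6%, taken per start. Neither this median nor the share of starts inside a region was taken per start over all protein-coding genes. Per gene, with all its coding starts together, the medians were 25.7% for Hox genes and 22.9% for all protein-coding genes.

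The split by paralogue group did not follow a simple order along the axis. The median covered share was 13.8% over the 8 genes of groups 1 to 3, 34.4% over the 15 genes of groups 4 to 8 and 31.3% over the 16 genes of groups 9 to 13. Over the 39 genes the covered share and the group number had a Pearson r of 0.182 and a Spearman rho of 0.190. Single groups, picked out after their values were seen, differed more. In group 10 the shares ran from 65.9% to 90.4%, in all 3 clusters that have it. In group 13 they ran from 0% to 33.9%, and in group 2 from 0% to 6.60%. These ranges depended on the window. With 10 kb on each side group 2 had 17.5% at Hoxa2 and 16.5% at Hoxb2, and group 10 ran from 52.8% to 63.3%. Paralogues could also lie far apart, as in group 8, with 34.4% at Hoxb8 and 97.3% at Hoxc8.

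**Figure D2:**
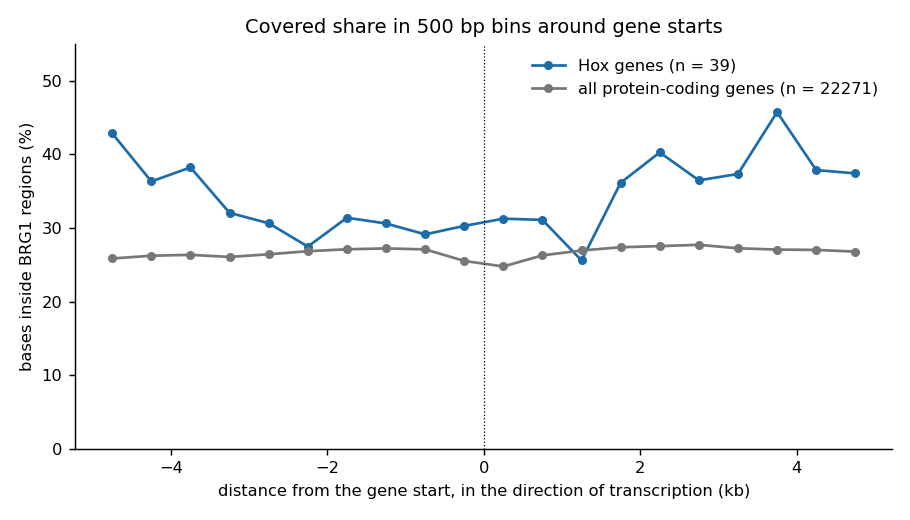
Mean covered share in bins of 500 bp (vertical axis, %) against distance from the gene start in the direction of transcription (horizontal axis, kb) for 39 Hox genes and 22271 protein-coding genes. The Hox line lies at 31.3% just after the start and reaches 45.7% between 3500 and 3999 bp, while the line of all genes stays between 24.8% and 27.7%.

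Averaged over the Hox starts, the covered share was lowest, at 25.6%, in the bin from 1000 to 1499 bp past the start, where all protein-coding genes had 26.9%. It was 30.3% in the 500 bp before the start and 31.3% in the 500 bp after it, against 25.5% and 24.8% over all protein-coding genes. The outermost upstream bin had 42.8% in the Hox genes and 25.9% over all. At the start base itself the shares were 38.5% and 24.2%, so the difference did not grow evenly with distance. With windows of 2 kb on each side the medians were 15.2% for Hox genes and 15.3% for all protein-coding genes, and with 10 kb on each side they were 39.1% and 24.0%.

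Taken whole, the 4 clusters span 492025 bp, of which 35.9% lay inside regions. The share over the autosomes, X and Y was 25.8%, and 26.3% of their sequenced bases. With 50 kb added on each side the clusters had a covered share of 31.1% and 180 regions, and the flanks alone had 25.3%. The flanks differed between clusters. Those of HoxA, at 33.4% and 34.6%, and of HoxC, at 35.3% and 36.9%, were nearly as covered as the clusters they adjoin. Those of HoxD had 21.0% and 19.9%, and those of HoxB 13.5% and 8.04%. HoxD, of 96.8 kb on chromosome 2 from 74506367 to 74603200, had the largest share, 48.5%, in 25 regions. HoxC, of 115.7 kb on chromosome 15 from 102751534 to 102867274, had 40.0% in 24 regions. HoxA, of 105.5 kb on chromosome 6 from 52105366 to 52210874, had 36.9% in 19 regions. HoxB, of 173.9 kb on chromosome 11 from 96055630 to 96229570, stood apart with 25.5% in 32 regions, close to the level of the chromosomes as a whole.

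Each cluster was ranked among all windows of its own size placed every 10 kb, leaving out windows with more than 10% unsequenced bases. The rank is a description, since neighbouring windows overlap. HoxD exceeded 98.7% of 254450 windows, whose median was 25.8%. HoxC exceeded 94.1%, HoxA 88.4% and HoxB 46.5% of the windows of their sizes. With 50 kb flanks HoxC, at 38.2%, exceeded 96.4%, HoxA, at 35.5%, 91.7% and HoxD, at 34.3%, 88.4% of windows. HoxB with flanks, at 20.1%, exceeded only 12.7%. This order depended on the flank size: with 100 kb flanks HoxD was first again, at 97.7% of windows, before HoxC at 87.3%, HoxA at 67.2% and HoxB at 31.7%. Thus 3 clusters were in the upper part of the range, and HoxB was near the middle without its flanks and in the lower part with them.

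**Figure D3:**
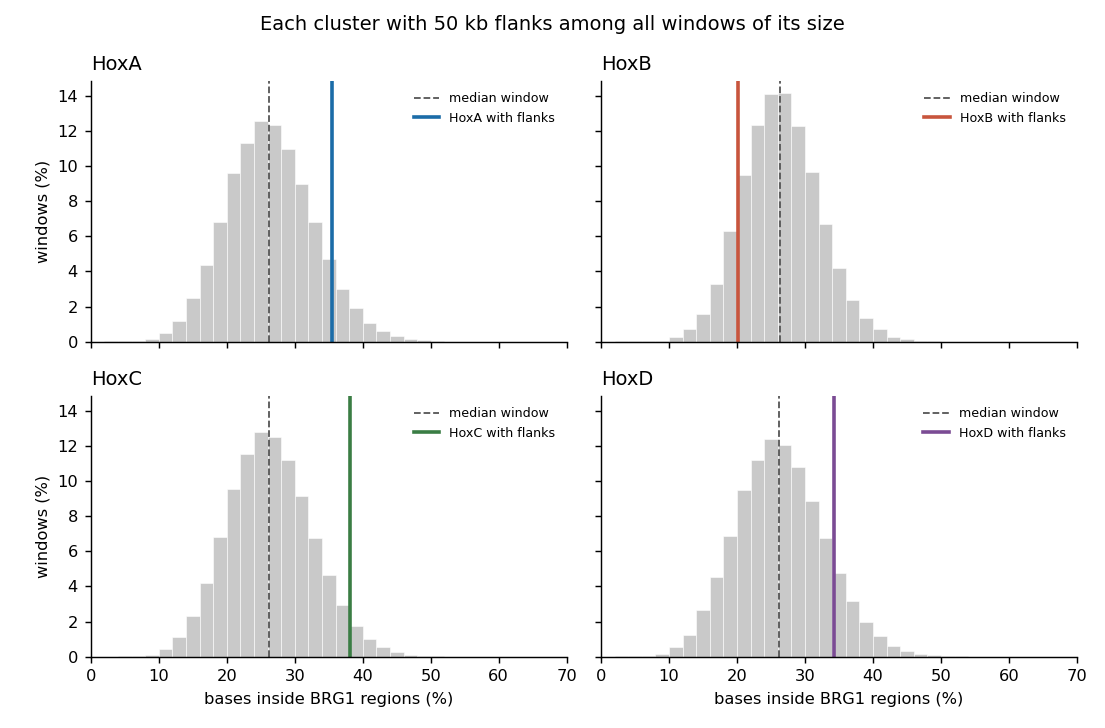
Distribution of the covered share (horizontal axis, %) over all windows of the size of each cluster with 50 kb flanks, as the share of windows in bins of 2% (vertical axis, %). The coloured line is the cluster and the dashed line the median window; HoxA, HoxC and HoxD lie above the median and HoxB, at 20.1%, below it.

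Counts of regions gave another picture from covered bases. HoxA and HoxB held 0.180 and 0.184 regions per kb and exceeded 32.4% and 32.6% of windows by count, HoxC exceeded 53.2% and HoxD 82.4%. Without flanks, the high covered shares of HoxA and HoxC thus came with long regions and not with many. With flanks HoxA held 48 regions, against 42 in the median window, and exceeded 76.4% of windows by count. In the clusters the median region was 945 bp long and the mean 1766 bp, against 600 bp and 1304 bp in the whole list. Regions of at least 5 kb made up 10 of the 100 regions, and 4.19% of all regions. These 10 regions held 42.6% of the region bases of the clusters, whereas such regions held 24.7% of the bases of the whole list. At the short end, 23 of 100 regions were at most 300 bp long, against 27.7% of the list.

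Of the 10 long regions, 5 held a Hox start, those of Hoxa5, Hoxa10, Hoxc8, Hoxc10 and Hoxd3. The others lay between genes or within them, such as adjacent regions of 8520 bp and 9240 bp over the 3′ part of Hoxd3 and beyond its end. The region of 8520 bp holds another coding start of Hoxd3. Among cluster regions of any length, 15 held an outermost Hox start. The share of regions of at least 5 kb in the whole list that hold a gene start was not taken. The part of length in these counts was not tested. Leaving out the longest region of each cluster lowered the pooled share from 35.9% to 29.0% and the median over Hox genes from 25.9% to 21.1%. Other genes kept their regions here, so a fall is built in. Of the equally long regions in HoxC, only the one at Hoxc10 was left out. When each window of the chromosomes also lost its longest stretch of region, HoxD still exceeded 98.6% of windows, HoxC 91.1%, HoxA 86.7% and HoxB 50.6%.

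**Figure D4:**
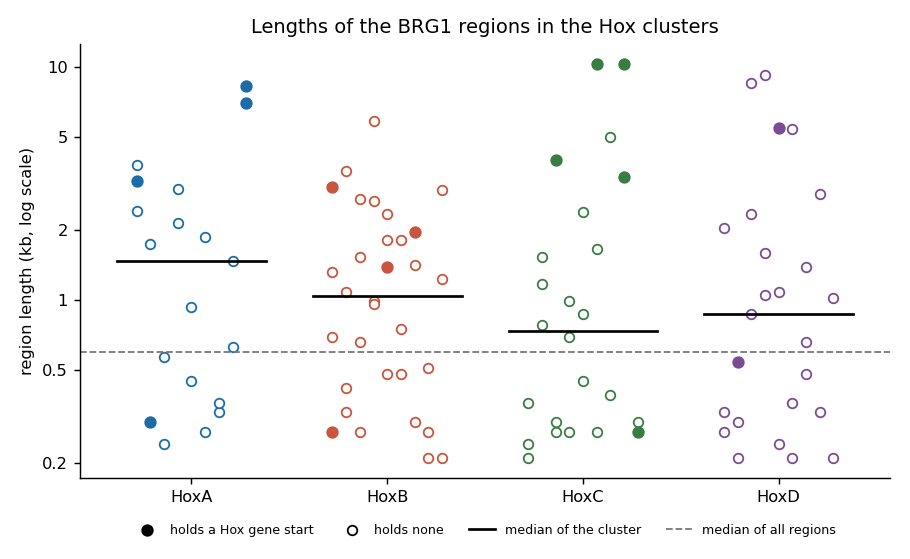
Length of each of the 100 regions in the Hox clusters (vertical axis, kb, log scale) by cluster, filled where the region holds a Hox gene start. The dashed line is the median of the whole list, 600 bp; the longest regions, of 10290 bp, are in HoxC and both hold a start.

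Several ends of clusters, picked out after their values were seen, lay in long stretches without regions. The start of Hoxa13 was in a stretch of 13.5 kb, that of Hoxc13 in one of 12.2 kb and that of Hoxd13 in one of 15.1 kb, each longer than at least 93.6% of the gaps in the list. At the other end, Hoxd1 started in a stretch of 13.2 kb. Such stretches were not limited to the ends: Hoxb2 started in one of 16.4 kb, and Hoxb6 and Hoxb7 in one of 14.2 kb. The share of all gene starts in stretches of this length was not taken, and the ranks carry the limit given for Hoxa2. Some of these starts lay near the edge of their stretch. The nearest region was 916 bp from the start of Hoxa13, 905 bp from Hoxc13, 398 bp from Hoxd1 and 6163 bp from Hoxd13. Hoxa13 had 3 regions within 5 kb of its start and a covered share of 33.9%. No base of the bodies of Hoxa13, Hoxc13 and Hoxd13 was covered, and Hoxb13, whose body was 16.0% covered, was the exception in its group. In all, 12 Hox genes had no region over the gene body, 30.8%, against 15.9% of protein-coding genes. Hox genes are shorter, with a median of 4.06 kb against 15.5 kb, and the part of length in this difference was not tested.

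In HoxB the end gene Hoxb13 is separated from Hoxb9 by 74.0 kb, of which 17.6% was covered, with 1 stretch of 26.1 kb holding no region. From Hoxb1 to Hoxb9, over 96.8 kb, the covered share was 31.9%. This shorter stretch exceeded 74.0% of windows of its size. With 50 kb flanks it had 23.4% and exceeded 33.5% of windows, so that HoxB with flanks stayed in the lower part of the range.

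**Figure D5:**
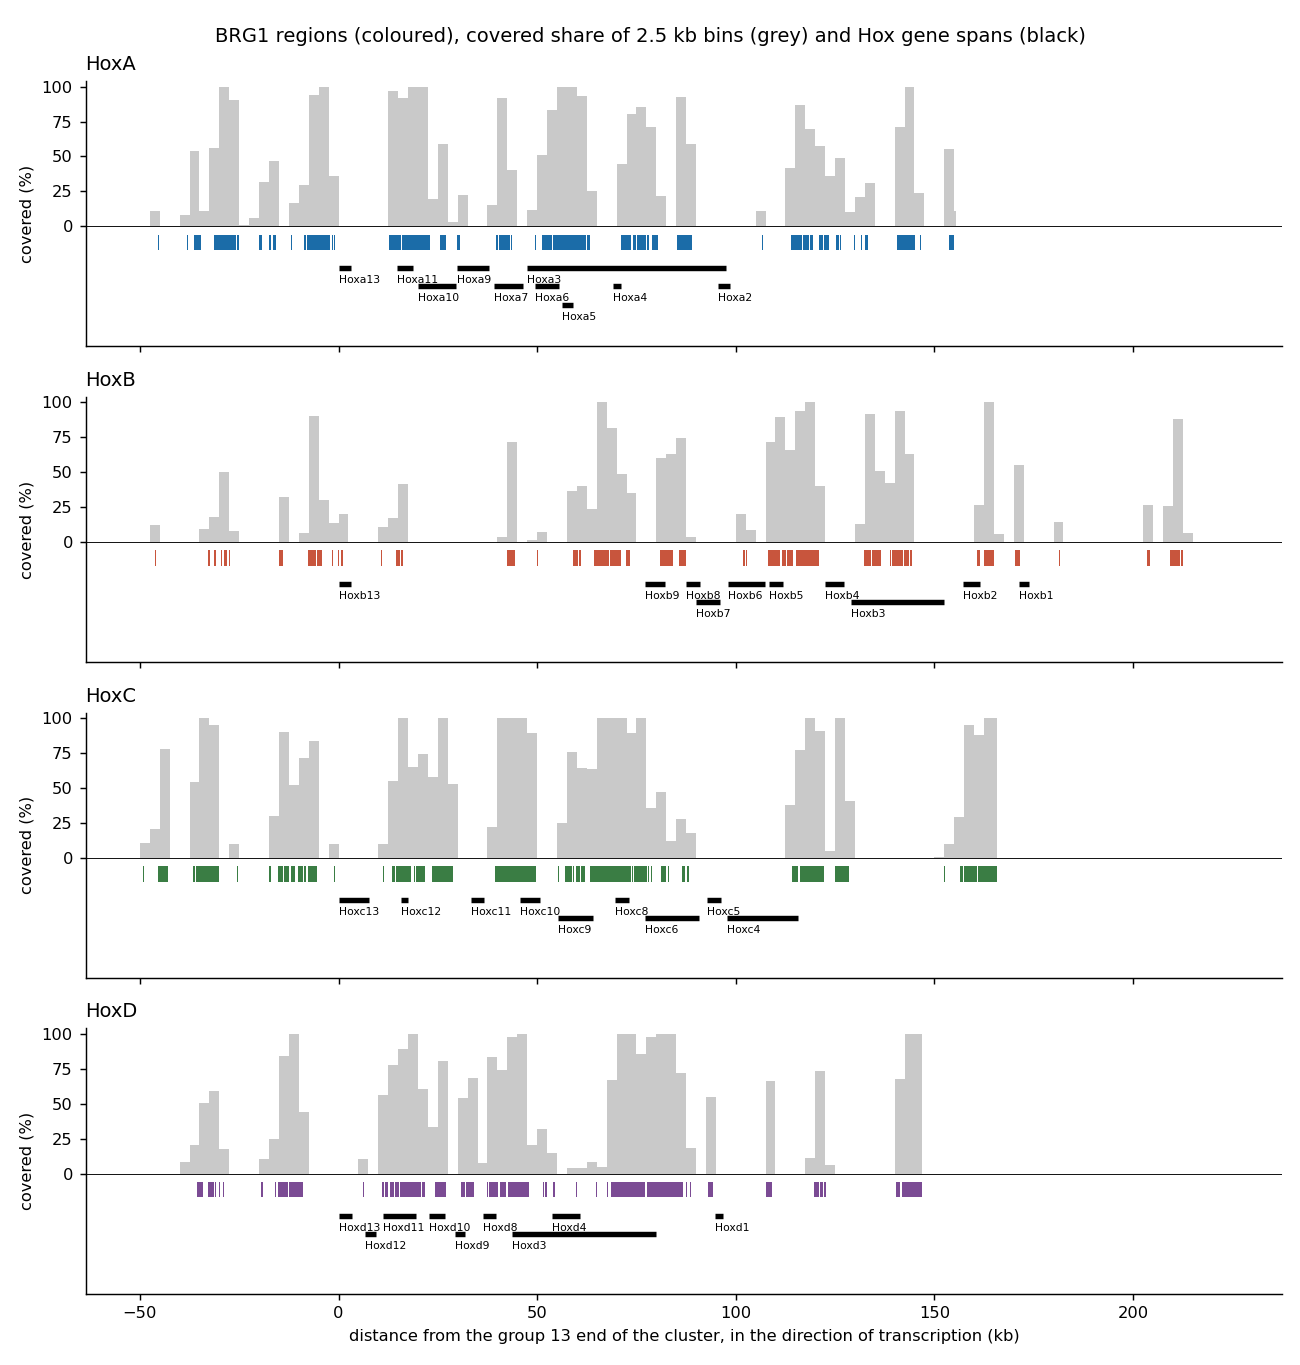
BRG1 regions (coloured blocks), covered share of bins of 2.5 kb (grey bars, vertical axis, %) and annotated spans of 38 Hox genes (black) along each cluster with 50 kb flanks. The horizontal axis is the distance in kb from the group 13 end in the direction of transcription; the blocks are sparse between Hoxb13 and Hoxb9.

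Within the clusters the regions did not favour one kind of sequence. Pooled over the 4 clusters, 33.7% of coding exon bases, 34.5% of other exon bases, 37.5% of intron bases and 35.4% of bases between Hox gene bodies were covered. The clusters differed from each other in this. The last coding exon, which in Hox genes holds the homeobox, was 66.4% covered in HoxD, 38.4% in HoxC, 22.8% in HoxA and 6.63% in HoxB. In HoxC the bases between genes had the largest share, 52.8%, and in HoxA the smallest, 17.3%.

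The clusters are rich in CpG dinucleotides: with 29.8 per kb HoxA exceeded 99.995% of windows of its size, and the other 3 exceeded at least 99.9%. Their GC content was lowest in HoxB, at 48.9%, and exceeded at least 94.9% of windows in every cluster. Inside regions there were 23.7 CpG per kb of cluster and outside them 24.7, so the covered bases were not the CpG-rich ones. Over the genome the values were 7.92 inside and 8.49 outside. Windows were also divided into 10 equal classes by GC content. Within its own class HoxD exceeded 99.1%, HoxC 95.5% and HoxA 90.4% of windows, and HoxB sat at the median, all close to the ranks among all windows. Across the 39 gene windows the covered share and GC content had a Pearson r of 0.117 and a Spearman rho of 0.255, and windows of neighbouring genes share bases. The ease of mapping reads, which a list of regions does not show, was not tested.

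The clusters also hold microRNA genes that act on Hox transcripts. Of the 6 annotated there, Mir196a-1, upstream of Hoxb9, lay wholly inside a region of 2700 bp, and the other 5, Mir196b, Mir10a, Mir196a-2, Mir615 and Mir10b, had no covered base. Over the list, 26.1% of 1577 microRNA genes had a covered base. Mir196b, within the span of Hoxa9, missed the nearest region by 6 bp. All 6 were matched by symbol to RefSeq (GRCm38.p6), and the mature sequences of the covered gene are given with the seed, bases 2 to 8, in capitals. The first is also made from Mir196a-2 in HoxC, whose nearest region was 2503 bp away, and has Hoxb8 among its known targets.
mmu-miR-196a-5p: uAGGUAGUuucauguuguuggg
mmu-miR-196a-1-3p: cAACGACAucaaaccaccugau

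All 5 lincRNA genes inside the clusters had covered bases, as did 82.6% of the 1273 annotated. Their median was 68.2%, against 23.4% over all of this type. Hoxa11as, the antisense partner of Hoxa11, had 68.2% of its body covered. The gene 2700086A05Rik, which runs from within the span of Hoxa3 into the 3' end of Hoxa7 on the opposite strand, had 11 regions and 49.3%, and Gm15050, within the span of Hoxa3, was wholly covered. Gm11538, between Hoxb13 and Hoxb9, had 13.3%, and 1700109F18Rik, over Hoxd8 and the start of Hoxd3, had 73.0%. HoxC holds no gene of this type. Of 12 other noncoding genes, annotated as processed transcripts and not overlapping a microRNA entry of the same name, 9 had covered bases and 2 were wholly covered, with a median of 42.5%. Over 2567 genes of this type 74.8% had covered bases, 3.97% were wholly covered and the median was 19.1%. The 2 wholly covered genes in the clusters lay inside the same region of 9240 bp in HoxD, so they are not independent. Hoxb3os, across the end of Hoxb3 and the start of Hoxb2, was among the 3 without a covered base, and in HoxC Gm16258 had 86.5% and Gm20398 51.5%. Many of these genes share bases with the Hox genes they lie across.

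The Evx genes, relatives of the Hox genes at the group 13 end, had 35.7% within 5 kb of the start for Evx1 beside HoxA and 41.6% for Evx2 beside HoxD. The body of Evx2 was 86.9% covered, while the 8.45 kb between it and Hoxd13 held no region. At the group 1 end the first coding genes were Skap2 for HoxA, with no region within 5 kb of its start, Skap1 for HoxB, with 40.2%, Smug1 for HoxC, with 2.70%, and Mtx2 for HoxD, with 40.9%. At the group 13 end, Ttll6 beside HoxB had 8.10%, and Gm17649, 0.282 kb from Hoxc13, had 2.40%. Coding neighbours thus ranged from no region to 41.6%, a range that holds the median of the Hox genes, 25.9%.

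Other homeobox genes were set beside the Hox genes by the same measure. The 9 TALE cofactor genes (Meis, Pbx and Pknox), whose products bind DNA together with HOX proteins, had a median covered share of 10.2% and 1 start inside a region. The 8 ParaHox and Evx genes had a median of 36.5% and 3 covered starts. The 85 other homeobox genes are those that a name pattern caught, without 2 symbols caught by accident, and not all such genes. They had a median of 22.6%, and 20 starts inside a region, 23.5%, against 24.2% of all protein-coding genes. At least 1 region lay within 5 kb of 67 of these 85 genes, 78.8%, against 90.5% of all protein-coding genes. No test was made between these lists.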

How the data were processed

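BRG1 ChIP-seq reads of 2 Tβ4-primed BRG1 libraries and their inputs were mapped by the authors with Bowtie 1.0.0 to mm9, and regions were called with MACS2 2.0.10. The deposited list gives region starts and ends in bp and has no further value. The paper cites the bdgcomp function, while the naming of the regions resembles bdgdiff output, so the call that defines a region is not certain. How the replicates were combined is not given in the sources used here, and the depth is unknown. PBS-primed data were not analysed here.

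Starts were shifted to count from 1. Entries of 1 symbol that overlap on 1 strand were merged, and the outermost start was used. A region counted with at least 1 bp inside a window. The list was checked for overlaps, and counting was tested on simulated data against bedtools 2.31.1. Python 3.11.15, numpy 2.4.6, pandas 2.3.3, scipy 1.17.1 and matplotlib 3.10.9 were used. Percentiles count ties at 50%.

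Genes were named by a rule: the largest and smallest covered share of each cluster, every Hox gene with no region within 5 kb or with its start inside one, Evx1 and Evx2, lincRNA, antisense and microRNA genes inside the clusters and the first coding neighbours. Other Hox genes, Hoxb3os, Gm16258 and Gm20398 were named after their values were seen. No gene inside has the type antisense. The symbol pattern for other homeobox genes also caught Eng and Islr, which are not homeobox genes; they were removed after results were seen. The members and lists were chosen with earlier results of these data known. The alternatives were joined regions, a length minimum or maximum, other windows and starts, stricter overlap and sequenced bases. Some single genes and 1 sequence are not reported here.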

Additional observations from a re-analysis of the deposited data

How the results depend on the processing

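Shares were set against the 95% Wilson interval of the reported value, which takes bases as independent and is a yardstick rather than an error, and counts against a range of 1.5 times. The number of Hox genes with a region within 5 kb was 27 with windows of 2 kb, 30 with regions of at least 600 bp alone, 34 to 37 under the other alternatives with 5 kb windows and 39 with windows of 10 kb. The first 2 and the last are 69.2%, 76.9% and 100% of Hox genes, beside 70.8%, 74.4% and 98.3% of all protein-coding genes, so these counts moved with the background. The number with a covered start ran from 11, with regions of at least 600 bp (28.2%, beside 20.1% of all genes), to 19, with any coding start (48.7%, beside 31.1%). Both stayed within 1.5 times the reported counts.

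The median covered share of the Hox windows, 25.9% as reported, moved to 28.9% with regions within 500 bp joined, 21.1% with regions of at least 600 bp, 15.2% with 2 kb windows and 39.1% with 10 kb windows. It was 25.7% with any coding start. The medians of all protein-coding genes beside the values that moved were 24.0%, 16.8%, 15.3% and 24.0%. Of the 39 single shares, 22 changed by over 1.5 times with 2 kb windows, 21 with 10 kb windows, 7 with regions of at least 600 bp and 6 with any coding start. The share of the clusters, 35.9%, moved to 38.3% with joining and 33.2% with regions of at least 600 bp, and that with flanks, 31.1%, to 33.3% and 28.2%. With flanks of 25 kb it was 32.9% and with 100 kb 30.4%.

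Some alternatives were chosen after seeing the data. Dropping the longest region of each cluster gave 21.1% for the gene windows, 29.0% for the clusters and 27.4% with flanks, and ending HoxB at Hoxb9 gave 39.3% for the clusters and 33.0% with flanks. The first lowers every value by construction. The Hox median lay below that of all genes with the longest regions dropped (22.1% over all genes) and, just, with 2 kb windows (15.3%). Leaving out regions over 100 kb changed none of the 5 values. The clusters and 100 kb on each side hold 0 unsequenced bases, so that choice leaves their shares as they are, and leaving out repeats was not run because the reference marks none. Over the settings that treat clusters and windows alike, the ranks without flanks ran from 86.7% to 89.7% of windows for HoxA, 46.5% to 74.0% for HoxB, 91.1% to 94.3% for HoxC and 98.4% to 99.0% for HoxD. With flanks they ran from 67.2% to 92.6%, 12.7% to 33.5%, 87.3% to 96.4% and 87.7% to 97.7%.

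No paired analysis was possible because the list pools the replicates. Depth, which sets how many regions a caller finds, is unknown, and so is the spread between replicates. Annotated starts are not starts measured in the heart, and 1 list cannot show which regions a second experiment would give again.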

Other observations

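Regulatory sequences of HoxD extend far beyond the cluster on both sides. Over 1 Mb next to it, 33.7% of bases at the group 13 end and 32.2% at the group 1 end were covered. The same distance gave 29.6% and 28.7% beside HoxA, 22.4% and 25.6% beside HoxB, and 21.9% and 15.1% beside HoxC. HoxC thus had the lowest share in its wider surroundings at the group 1 end, although the cluster itself ranked high. These shares were not ranked among windows of 1 Mb, and a link to regulatory sequences was not tested.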
